A study of Mus musculus with 18 samples.

Results

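Genes that set the balance of pyrophosphate and phosphate in cartilage were described in femoral condyle cartilage of male C57Bl/6J mice after rupture of the anterior cruciate ligament (ACL). The genes are Enpp1, Ank, Nt5e, Phospho1, Slc20a1, Slc20a2 and Mgp, chosen by name as controllers of mineralization, and they are 7 of the 49184 genes with a value in the files. RNA depleted of ribosomal RNA was sequenced from pooled knees in 18 libraries, numbered 1 to 18. The naive group held 6 libraries (7 to 12) from mice that were not loaded, labelled with day 7. In the other mice a single 12 N load ruptured the ACL of the right knee, and their left knees gave the contralateral samples. There were 3 injured (2, 3 and 6) and 3 contralateral (1, 4 and 5) libraries at day 1, and 3 injured (16 to 18) and 3 contralateral (13 to 15) libraries at day 7. All mice were wild type and, by the description of the methods, 12 weeks old. Each library was a pool of mice, so that n counts pools, and by the methods the pools at day 7 held more mice than the others. By the same source the left and right knees of the naive mice were pooled separately, so that the 6 naive libraries share mice, as do the injured and contralateral libraries of a day. The labels do not say which libraries share mice, and n, SD and FDR below treat all of them as independent, so that an FDR may be too small where libraries of 1 group share mice. The tissue was taken at the tidemark, and cartilage had been partly lost at day 7. Totals of estimated counts ranged from 16074762 to 41794005 per library, and the lowest estimated count of any of the 7 genes in any library was 284.

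Mineral forms in cartilage when phosphate and calcium outweigh the inhibitors that keep them in solution. Inorganic pyrophosphate is the main small inhibitor. Outside the cell Enpp1 makes it from ATP, which leaves AMP, and Ank raises it by carrying ATP or pyrophosphate out of the cell, whereas the alkaline phosphatase Alpl breaks it down to phosphate. Nt5e (CD73) turns the AMP into adenosine and phosphate, Phospho1 releases phosphate inside matrix vesicles, and Slc20a1 and Slc20a2 carry phosphate into cells. Mgp is a matrix protein that blocks calcification once its glutamate residues have been carboxylated with vitamin K.

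The genes lie on chromosomes 10 (Enpp1, ENSMUSG00000037370, positions 24637914 to 24712159, minus strand), 15 (Ank, ENSMUSG00000022265, 27466677 to 27594909, plus strand), 9 (Nt5e, ENSMUSG00000032420, 88327197 to 88372092, plus strand), 11 (Phospho1, ENSMUSG00000050860, 95824499 to 95832140, plus strand), 2 (Slc20a1, ENSMUSG00000027397, 129198764 to 129211616, plus strand), 8 (Slc20a2, ENSMUSG00000037656, 22476788 to 22569612, plus strand) and 6 (Mgp, ENSMUSG00000030218, 136872435 to 136875823, minus strand) of GRCm38. All are protein-coding. The 250 bases before the RefSeq start (GRCm38.p6) are shown for Enpp1 and Ank, which both supply extracellular pyrophosphate. In counts normalized between libraries (CPM below), their day 7 injured libraries all lay above those of naive and day 7 contralateral cartilage. For Ank this did not hold by TPM, as given below. Capitals mark letters of the motifs searched on both strands: GGGCGG (GC box), TATAAA (TBP), TGANTCA (AP-1), GGAATG (TEAD), TGTGGT (RUNX), TGACGTCA (CRE) and CACGTG (E-box).
Enpp1, chr10:24712160-24712409, minus strand: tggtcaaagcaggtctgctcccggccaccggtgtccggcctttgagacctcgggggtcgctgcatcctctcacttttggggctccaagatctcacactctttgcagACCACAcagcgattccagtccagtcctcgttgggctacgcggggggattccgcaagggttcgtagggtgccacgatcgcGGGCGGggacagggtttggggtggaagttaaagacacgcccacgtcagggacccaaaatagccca
Ank, chr15:27466427-27466676, plus strand: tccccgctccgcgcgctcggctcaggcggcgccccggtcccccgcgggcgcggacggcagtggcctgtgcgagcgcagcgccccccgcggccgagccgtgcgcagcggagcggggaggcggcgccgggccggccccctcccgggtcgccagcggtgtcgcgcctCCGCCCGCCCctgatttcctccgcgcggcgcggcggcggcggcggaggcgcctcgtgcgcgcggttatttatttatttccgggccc
The Enpp1 sequence held 1 GC box and 1 RUNX word, and its GC content was 61.2%. The Ank sequence held 2 GC boxes that overlap each other, with a GC content of 81.2%. Of all 32851 RefSeq promoter windows of the same length, 32.7% held a GC box and 14% the RUNX word, and the median GC content was 52.4%. These matches describe letters only.

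Levels between genes are compared as TPM, which is scaled by transcript length. In naive cartilage Mgp was the most abundant of the 7 genes, at 117 ± 25.2 TPM (SD, n = 6), and held 58.6% ± 3.31 (SD, n = 6) of their summed TPM. Phospho1 followed at 26.9 ± 6.53 TPM, Ank at 19.5 ± 2.86 TPM and Slc20a1 at 16.2 ± 2.78 TPM, and the libraries of neighbours in this order overlapped. Enpp1 stood at 9.28 ± 2.84 TPM, below every naive library of Slc20a1. Slc20a2 at 5.03 ± 0.699 TPM and Nt5e at 4.87 ± 1.88 TPM were lowest and overlapped each other (SD, n = 6 for each). In day 7 injured cartilage the mean of Enpp1, 31.9 ± 12.4 TPM (SD, n = 3), was second only to that of Mgp, 167 ± 32.1 TPM, although the Enpp1 libraries still overlapped those of Ank at 20.2 ± 3.75 TPM and of Phospho1 at 19.8 ± 2.17 TPM. Values below are CPM unless TPM is named. CPM are the estimated counts scaled by library size and normalized between libraries, which compare 1 gene between groups. TPM was not normalized between libraries in this way, and groups apart in CPM could overlap in TPM. Day 7 injured libraries overlapped naive ones in TPM for Ank (16.4 to 23.9 against 15.8 to 23.1), Nt5e (6.99 to 12.0 against 3.38 to 8.42) and Mgp (143 to 203 against 84.7 to 146). Those of Enpp1 did not (20.7 to 45.2 against 6.12 to 12.7 TPM).

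**Figure D1:**
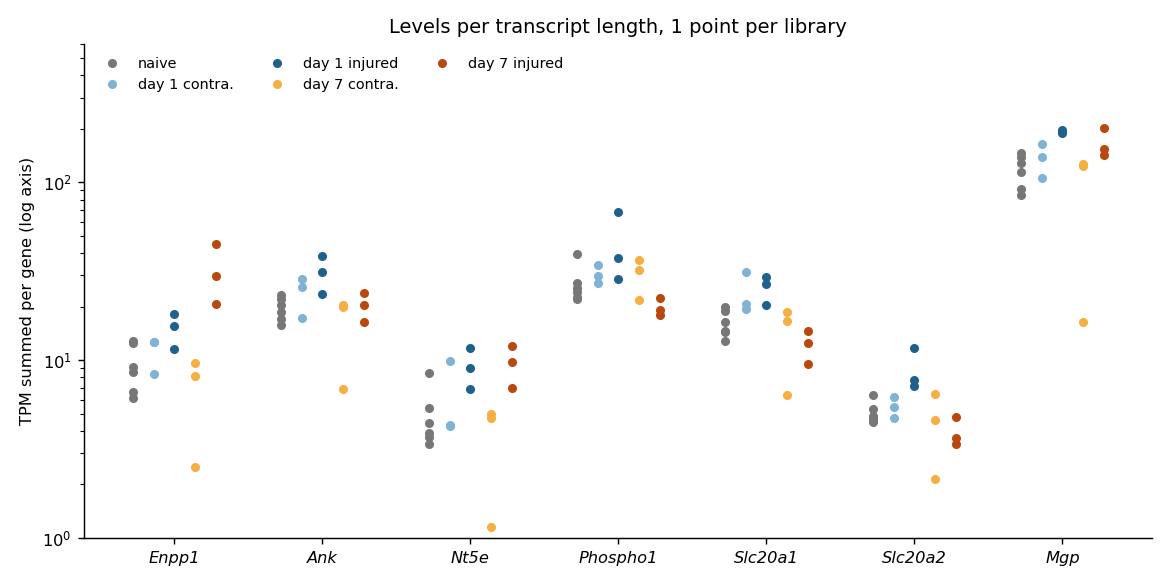
TPM summed per gene, on a log axis, for the 7 genes in each of the 18 libraries, coloured by group. Mgp lies above the other genes in naive libraries, and Enpp1 moves from 6.12 to 12.7 TPM in naive to 20.7 to 45.2 TPM in day 7 injured libraries. Naive and day 7 injured points overlap for every gene but Enpp1. The low day 7 contralateral point of each gene is library 13.

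At day 7 after rupture 3 of the 7 genes rose against naive cartilage: Enpp1 4.10-fold, Nt5e 2.49-fold and Mgp 1.78-fold. The same 3 rose against the contralateral knee of the same day, 5.19-fold, 3.07-fold and 2.35-fold. Ank was higher by less than the 1.5-fold limit, and Phospho1, Slc20a1 and Slc20a2 passed no test against either control. A gene is said to have risen or fallen when the quasi-likelihood test of edgeR gave a false discovery rate (FDR, Benjamini-Hochberg over all genes tested) of at most 0.05 and the change was at least 1.5-fold. Of all 21129 genes tested against naive libraries 10.4% rose and 6.11% fell, and of 21262 genes tested against day 7 contralateral libraries 9.33% rose and 3.23% fell. The counts that fell depended on single libraries. Against naive they were 1291 genes, and 797 without injured library 18. Against the contralateral knee they were 686 genes, and 279 or 426 without injured library 18 or 17, 434 without contralateral library 13 and 1058 without contralateral library 15. The counts that rose stayed within 1.5 times when any 1 library was left out. The median log2 fold change over the 7 genes was 0.39 against naive, where that of all genes was -0.04. Both comparisons share the day 7 injured libraries.

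**Figure D2:**
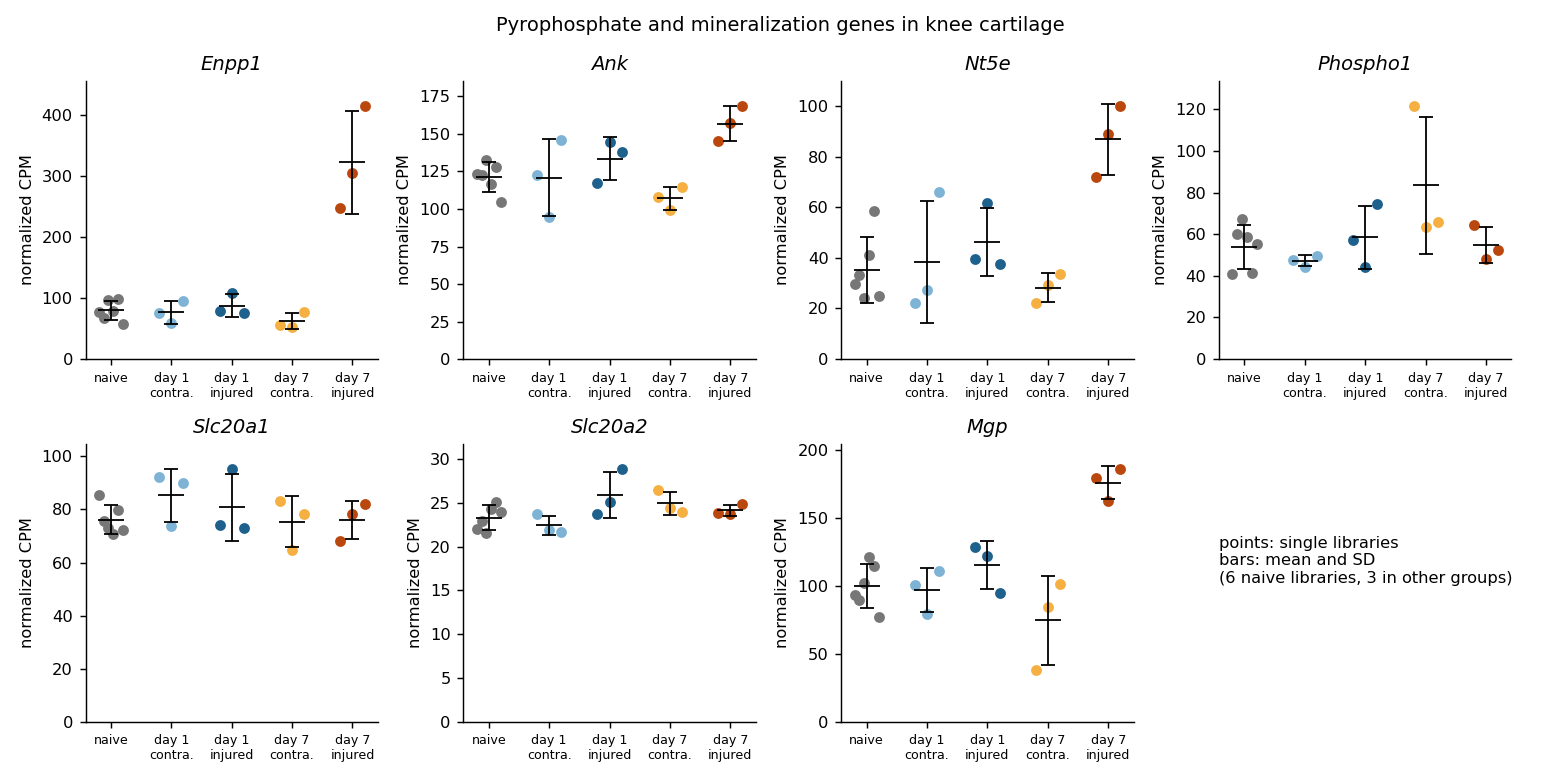
Normalized CPM of the 7 genes, 1 panel per gene with an axis from 0; points are libraries and bars the mean and SD of each group (6 naive, 3 in each other group). Day 7 injured points lie above all naive and all contralateral day 7 points for Enpp1, Ank, Nt5e and Mgp, and overlap them for Phospho1, Slc20a1 and Slc20a2.

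Enpp1, the enzyme that makes pyrophosphate, changed most. It was at 57.7 to 99.2 CPM in the naive libraries, with a median of 78.5. At day 1 the contralateral libraries held 74.9, 58.6 and 95.7 CPM and the injured libraries 78.7, 109 and 74.9 CPM. At day 7 the contralateral libraries held 55.7, 53.2 and 77.5 CPM and the injured libraries 248, 306 and 415 CPM. Every day 7 injured library was more than double the highest value of any other library. The log2 fold change was 2.04 (SE 0.195, FDR = 1.7e-06) against naive and 2.38 (SE 0.247, FDR = 3.2e-06) against day 7 contralateral cartilage by edgeR. Against day 1 injured cartilage it was 1.90 (SE 0.241, FDR = 6e-05), where 9.04% of 21129 genes rose and 6.38% fell (1347 genes, and 849 to 891 without day 1 injured library 6 or injured library 17 or 18). Enpp1 was also the only 1 of the 7 whose injury effect, injured against contralateral, was larger at day 7 than at day 1 by edgeR's test of that difference, at 2.18 on the log2 scale (SE 0.337, FDR = 0.000977). Of all genes 3.53% passed that test upwards (750 genes, and 483, 447 and 393 without day 1 injured library 2, day 1 contralateral library 5 or day 7 injured library 18) and 0.245% downwards (52 genes, and 9 to 91 with 1 library left out).

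Ank, the exporter that also raises extracellular pyrophosphate, moved far less. Naive libraries held 104 to 132 CPM with a median of 123. At day 1 the contralateral libraries held 123, 94.4 and 146 CPM and the injured ones 118, 145 and 138 CPM. At day 7 the contralateral libraries held 108, 99.1 and 114 CPM and the injured ones 145, 157 and 168 CPM. The day 7 injured libraries lay above all naive, day 7 contralateral and day 1 injured libraries, and overlapped day 1 contralateral library 5. The groups were apart, in either direction, for 28.2% of all genes against naive, 33% against day 7 contralateral and 40.3% against day 1 injured libraries, and Enpp1, Nt5e, Mgp and Ank were apart in each of these. The log2 fold change of Ank was 0.39 (SE 0.116, FDR = 0.0197 by edgeR), a 1.31-fold difference, against naive and 0.55 (SE 0.134, FDR = 0.0077), a 1.46-fold difference, against day 7 contralateral libraries. It passed the FDR and missed the fold limit in both, and without injured library 16 it passed both limits against the contralateral knee (log2 fold change 0.60, FDR = 0.0109).

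**Figure D3:**
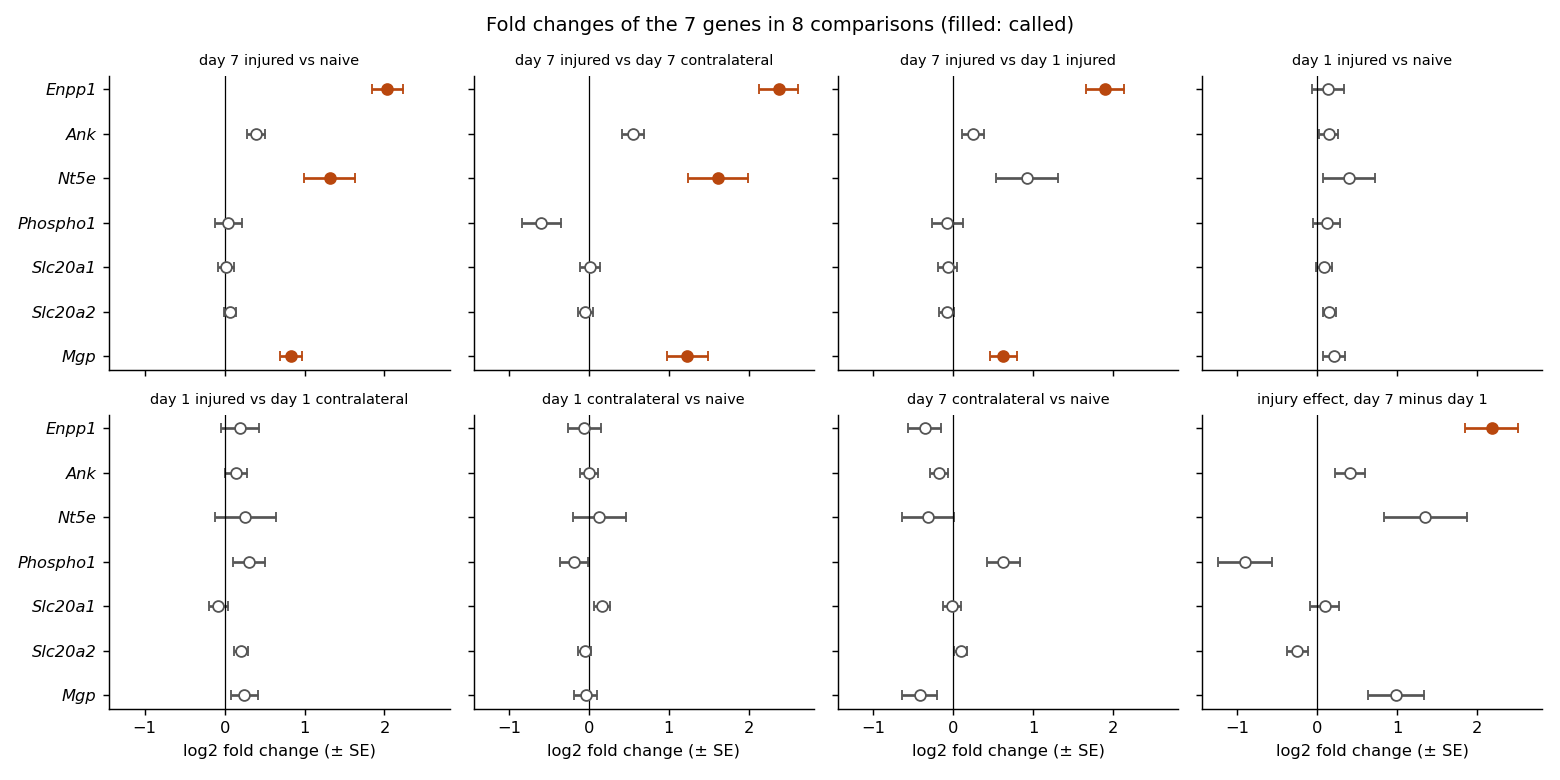
Log2 fold change with its SE for the 7 genes in 8 comparisons on 1 common axis; filled points passed an FDR of at most 0.05 and 1.5-fold. Filled points appear for Enpp1, Nt5e and Mgp in the comparisons of day 7 injured libraries with naive and day 7 contralateral libraries, for Enpp1 and Mgp against day 1 injured libraries, and for Enpp1 in the difference between the injury effects.

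Nt5e, which takes the AMP left by Enpp1 on to adenosine, was at 24.0 to 58.4 CPM in naive libraries with a median of 31.5. The day 1 contralateral libraries held 22.1, 27.3 and 66.0 CPM, and the day 1 injured ones 39.6, 61.8 and 37.5 CPM. The day 7 contralateral libraries held 22.1, 29.2 and 33.5 CPM and the day 7 injured ones 71.9, 89.0 and 100 CPM. In CPM all day 7 injured libraries lay above all others, but naive library 11, day 1 contralateral library 5 and day 1 injured library 3 stood well above the rest of their groups. By TPM the day 7 injured libraries (6.99 to 12.0 TPM) overlapped the day 1 injured ones (6.89 to 11.7 TPM). The log2 fold change was 1.32 (SE 0.320, FDR = 0.00617 by edgeR) against naive and 1.62 (SE 0.375, FDR = 0.00531) against day 7 contralateral cartilage. Against day 1 injured cartilage it was 0.93 (SE 0.383, FDR = 0.0911), which missed the threshold.

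The same 3 libraries were high in Pdpn and Has1, a surface protein and a hyaluronan synthase of the synovial lining. In them Nt5e was at 58.4 to 66.0 CPM, Pdpn at 45.5 to 54.1 CPM and Has1 at 21.1 to 32.2 CPM. In the other 12 libraries outside the day 7 injured group Nt5e was at 22.1 to 41.2 CPM, Pdpn at 5.69 to 15.2 CPM and Has1 at 3.35 to 8.12 CPM. In the day 7 injured libraries, Nt5e was at 71.9 to 100 CPM, with Pdpn at 40.8 to 52.4 CPM and Has1 at 20.7 to 44.6 CPM. Thy1 and Cd248, markers of fibroblasts beneath the lining, were not high in the 3 libraries (12.97 to 16.7 and 18.1 to 21.1 CPM) and reached 52.4 to 58.6 and 62.4 to 77.1 CPM in day 7 injured libraries. The other listed fibroblast markers were high in neither. Pi16 was at 36.6 to 41.4 CPM in the 3 libraries, 41.8 to 64.4 CPM in the other 12 and 39.9 to 53.3 CPM in day 7 injured libraries, and Dpp4 at 18.5 to 21.3, 17.97 to 29.1 and 18.8 to 22.4 CPM. With the 3 libraries left out, a choice made after their values were seen, the log2 fold change of Nt5e was 1.503 (FDR = 1.1e-05) against naive, and 1.16 (FDR = 0.00183) against day 1 injured cartilage, which then passed the threshold. Each held the most Nt5e of its group, so that leaving them out had to raise the fold change, and the new pass is no result. With any 1 library left out the FDR against day 1 injured cartilage was at least 0.0691. The part of synovial cells in the Nt5e result was not tested.

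**Figure D4:**
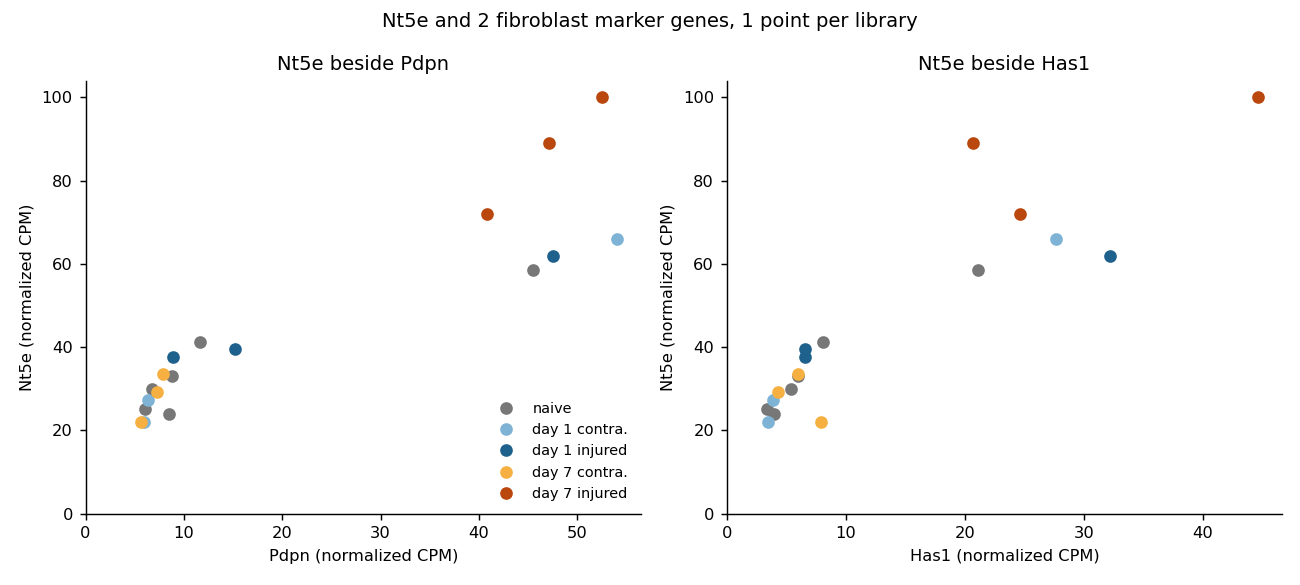
Normalized CPM of Nt5e (vertical) against Pdpn (left) and Has1 (right), 1 point per library and coloured by group. Naive library 11, day 1 contralateral library 5 and day 1 injured library 3 lie with the day 7 injured libraries in Pdpn and Has1, and below them in Nt5e (58.4 to 66.0 against 71.9 to 100 CPM).

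Phospho1, the phosphatase of matrix vesicles, was at 40.9 to 67.1 CPM in naive libraries with a median of 57.0. The day 7 injured libraries ranged from 48.0 to 64.6 CPM, and the log2 fold change was 0.05 (SE 0.171, FDR = 0.857 by edgeR). The day 7 contralateral libraries ranged from 63.3 to 121 CPM. Library 13 was the highest of them in CPM and the lowest in TPM (21.7 against 36.6 and 32.0 TPM). The injured knee was lower than the contralateral one by a log2 fold change of -0.60 (SE 0.243, FDR = 0.0993 by edgeR). That comparison missed the threshold, and passed it only without contralateral library 14 (-0.78, FDR = 0.0493), while without library 13 the log2 fold change was -0.21 (FDR = 0.571). The phosphate carriers passed no test. Slc20a1 ranged from 64.8 to 95.2 CPM over all 18 libraries and Slc20a2 from 21.6 to 28.9 CPM, and their day 7 injured libraries overlapped those of both controls. Against naive cartilage their log2 fold changes were 0.02 (SE 0.103, FDR = 0.917 by edgeR) and 0.07 (SE 0.0777, FDR = 0.531).

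Mgp, the Gla protein that inhibits calcification, was at 77.4 to 121 CPM in naive libraries with a median of 97.9. The day 1 contralateral libraries held 100.4, 79.1 and 111 CPM and the day 1 injured ones 129, 122 and 95.1 CPM. The day 7 contralateral libraries held 38.1, 84.5 and 101 CPM and the day 7 injured ones 179, 162 and 186 CPM. In CPM the injured day 7 libraries lay close together and above all others, while contralateral library 13 was the lowest of all. By TPM, which was not normalized between libraries, day 1 injured libraries held 189 to 197 TPM and day 7 injured ones 143 to 203 TPM. The log2 fold change was 0.83 (SE 0.139, FDR = 0.000341 by edgeR) against naive and 1.23 (SE 0.253, FDR = 0.00215) against contralateral cartilage, and 0.94 (FDR = 0.00202) without library 13. Library 13 stood apart in composition, with 42.5% of its counts in its 10 most abundant genes. Against day 1 injured cartilage Mgp rose 1.55-fold (log2 fold change 0.63, SE 0.165, FDR = 0.0127), a call that ended without day 1 injured library 6 (0.50, FDR = 0.0619).

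Before day 7, and in the contralateral knee, none of the 7 genes passed the test. Neither did any other gene (0% called) in day 1 injured against naive, day 1 injured against day 1 contralateral, day 1 contralateral against naive or day 7 contralateral against naive libraries, by edgeR. At an unadjusted p under 0.05 there were 959, 1383, 554 and 3220 genes in these comparisons, and the Wald test of DESeq2 called 15, 0, 2 and 8 genes. The log2 fold changes of the 7 genes in day 1 injured against contralateral cartilage ran from -0.08 for Slc20a1 to 0.30 for Phospho1. Slc20a2 was higher in all 3 injured than in all 3 contralateral libraries at day 1 (23.8 to 28.9 against 21.7 to 23.7 CPM), where 11.2% of all genes were apart in either direction, with an FDR of 0.755 by edgeR. In day 7 contralateral against naive cartilage they ran from -0.42 for Mgp to 0.63 for Phospho1 (FDR = 0.248 by edgeR for Phospho1).

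Most RNA of Mgp, Nt5e and Ank came from 1 transcript each. Mgp-201 held a median of 99.4% of the TPM of Mgp over the 18 libraries, Nt5e-201 94.4% and Ank-201 90.5%. Enpp1 was divided between 2 protein-coding transcripts, Enpp1-202 with a median of 40.4% and Enpp1-203 with 37.8%, and Enpp1-201, annotated as subject to nonsense-mediated decay, with 16.2%. In day 7 injured libraries these medians were 40.9%, 39.6% and 13.04%. The division among transcripts is an estimate of the pseudo-alignment and was not tested.

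Beside the 7 genes, 52 others of the same pathways were examined, of which 47 had enough counts to be tested. Against naive cartilage 12 rose, 4 fell and 31 did not pass the test in day 7 injured libraries, where 10.4% of all genes rose and 6.11% fell, with a median log2 fold change of 0.11 against -0.04 for all genes. Against the day 7 contralateral knee 9 rose and 2 fell, where 9.33% of all genes rose and 3.23% fell, with a median of 0.03 against -0.05 for all genes. The counts of each list below stand against these shares, and in lists this short a difference of 1 or 2 genes from them is no result about the list. The 4 falls against naive (Adora1, Adora3, Bglap3 and Mepe) were 0 without injured library 16 and 2 without naive library 9 or 10 or injured library 17, and the 2 falls against the contralateral knee were 1 without any one of the 3 injured libraries. The 12 against naive were Enpp3, Entpd2, Panx3, Stc1, Gas6, Ggcx, Vkorc1, Calu, Anxa2, Anxa5, Anxa6 and Ibsp. None of the 47 passed at day 1 or in the contralateral knees.

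Among 18 tested genes of ATP, pyrophosphate and adenosine, 3 rose and 2 fell against naive libraries, not far from the 10.4% and 6.11% of all genes, and 1 rose and 1 fell against the contralateral knee. Enpp3, a relative of Enpp1, was at 4.10 to 7.98 CPM in naive and 10.2 to 13.1 CPM in day 7 injured libraries, and its log2 fold change was 0.97 (SE 0.183, FDR = 0.000979 by edgeR). Entpd2, which breaks down ATP, and Panx3, a channel that releases it, rose 2.10-fold and 1.67-fold against naive libraries, and neither passed the test against the contralateral knee (FDR = 0.0574 and 0.208 by edgeR). Entpd2 did pass there with the Wald test of DESeq2 (FDR = 0.0317) and without contralateral library 13 (FDR = 0.0438). With only the groups compared its FDR was 0.0256, and 0.00533 without the 3 libraries high in Pdpn and Has1. Alpl, the enzyme that removes pyrophosphate, was at 97.7 to 158 CPM in naive and 112 to 146 CPM in day 7 injured libraries (log2 fold change 0.17, SE 0.147, FDR = 0.40). The adenosine receptors Adora1 and Adora3 fell by 1.16 and 0.64 on the log2 scale against naive libraries, and Adora2a fell by 0.74 against the contralateral knee; all were under 10 CPM. None of the 3 passed the test against the other control. Against the contralateral knee the log2 fold change was -1.28 for Adora1 (FDR = 0.0514 by edgeR) and -0.42 for Adora3 (FDR = 0.252), and against naive it was -0.17 for Adora2a (FDR = 0.397). Adora1 did pass against the contralateral knee with the Wald test of DESeq2 (FDR = 0.0175) and with a transcript length offset (FDR = 0.0478). Also, with only the groups compared its FDR was 0.0315, and 0.0251 without the 3 libraries high in Pdpn and Has1. Calls of several of these genes rested on single libraries. That of Entpd2 ended without injured library 16 (FDR = 0.0659), as did that of Adora3 (FDR = 0.0544). That of Panx3 ended without any one of naive libraries 7, 8, 10, 11 and 12 or injured libraries 17 and 18 (FDR from 0.0515 to 0.165), that of Adora1 without any one of naive libraries 7 to 10 or of the 3 injured libraries (FDR from 0.0564 to 0.159), and that of Adora2a without contralateral library 13 or injured library 17 or 18 (FDR from 0.0701 to 0.131). Abcc6, which lets ATP out of liver cells and is a source of circulating pyrophosphate, reached at most 4 estimated counts in any library and was not tested.

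Of 8 tested genes of phosphate transport and its regulation only Stc1 rose, and none fell, a share near the 10.4% of all genes that rose. Stc1, which encodes the hormone stanniocalcin, was at 2.32 to 3.78 CPM in naive and 7.35, 8.17 and 11.9 CPM in day 7 injured libraries in order of level, a log2 fold change of 1.60 (SE 0.174, FDR = 5.9e-06 by edgeR). The kidney and gut carriers Slc34a1, Slc34a2 and Slc34a3 reached at most 8, 0 and 1 estimated counts and were not tested.

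Of 11 tested calcification inhibitors and Gla proteins 4 rose and 1 fell against naive, and the same counts held against the contralateral knee. Ggcx and Vkorc1 rose, the carboxylase that modifies Mgp and the reductase that recycles its vitamin K, as did Calu, an endoplasmic reticulum protein that binds them, and Gas6, another Gla protein. Ggcx was at 17.3 to 27.4 CPM in naive, 20.5 to 24.4 CPM in day 7 contralateral and 51.4 to 59.3 CPM in day 7 injured libraries. Vkorc1 was at 9.33 to 15.995 CPM, 12.2 to 19.6 CPM and 32.1 to 35.3 CPM in the same groups. Against naive libraries the log2 fold changes were 1.35 for Ggcx (SE 0.129, FDR = 1.7e-06 by edgeR), 1.42 for Vkorc1 (SE 0.147, FDR = 3.8e-06), 1.60 for Calu (SE 0.170, FDR = 4.9e-06) and 1.02 for Gas6 (SE 0.0865, FDR = 5.3e-07). These 4 calls held without each library in turn, against either control. Bglap3, an osteocalcin relative below 2 CPM in every library, fell, a call that ended against naive without naive library 10 or 12 or injured library 16 or 17 (FDR from 0.0506 to 0.153), and against the contralateral knee without injured library 16 (FDR = 0.0866). Its copies Bglap and Bglap2 can share its reads, so that it is uncertain. Spp1 (osteopontin), at 609 to 940 CPM in naive and 977 to 1043 CPM in day 7 injured libraries, missed both limits (log2 fold change 0.42, SE 0.153, FDR = 0.0504 by edgeR), and Ucma, a Gla protein of cartilage, did not pass it (0.24, SE 0.276, FDR = 0.542).

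Of 10 tested genes of matrix vesicles and mineral nucleation 4 rose and 1 fell against naive, and 3 rose against the contralateral knee. The annexins Anxa2, Anxa5 and Anxa6, calcium-binding proteins found in matrix vesicles, rose against both controls. Anxa5 was at 92.0 to 138 CPM in naive, 125 to 283 CPM (the highest in library 13) in day 7 contralateral and 277 to 304 CPM in day 7 injured libraries, and rose 2.52-fold against naive libraries (log2 fold change 1.33, SE 0.114, FDR = 6.2e-07 by edgeR). Against the contralateral knee its call ended without any single library of the comparison other than library 13 (FDR from 0.0836 to 0.193). It also ended there with the size factors of DESeq2 (FDR = 0.0554), with no filter on low counts (FDR = 0.0523), with only the groups compared (FDR = 0.209) and with the 3 libraries high in Pdpn and Has1 left out (FDR = 0.0603). The Anxa6 call fell under the fold limit without injured library 18 (log2 fold change 0.58 against naive and 0.56 against the contralateral knee). Ibsp, a bone sialoprotein that nucleates mineral, rose 1.61-fold against naive libraries. Against the contralateral knee it did not pass the test (FDR = 0.0586 by edgeR), except without contralateral library 15 (FDR = 0.0343). Mepe, a protein of osteocytes, fell by 0.61 on the log2 scale against naive and missed the fold limit without naive library 9 (-0.58) or injured library 16 (-0.50), and the FDR with all 18 libraries fitted (FDR = 0.0923). Against the contralateral knee its log2 fold change was -0.07 (FDR = 0.909 by edgeR), and from -0.41 to 0.41 with 1 library left out.

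**Figure D5:**
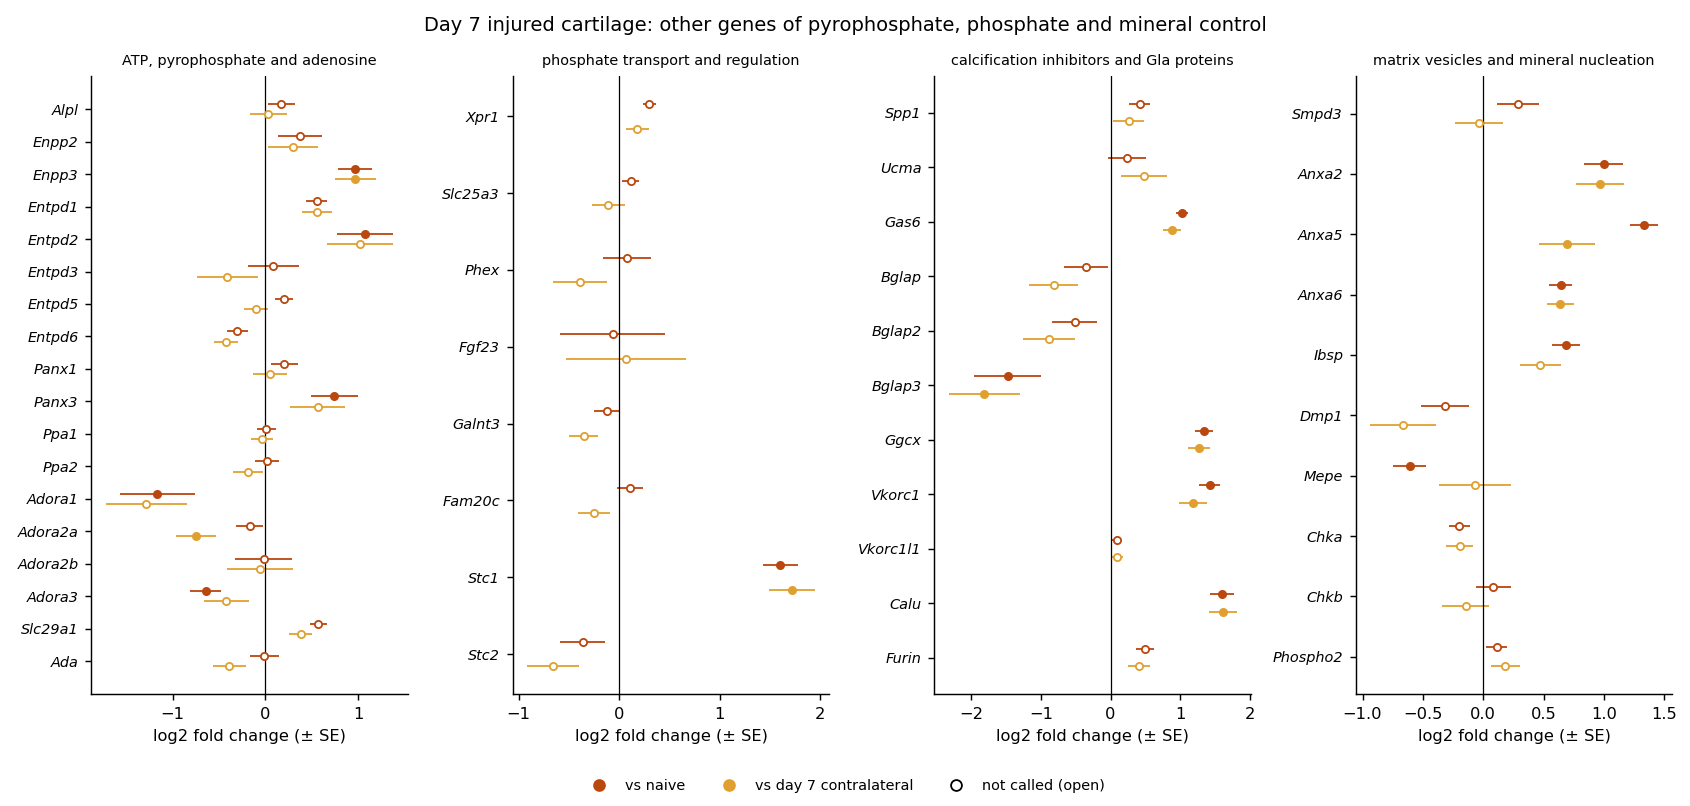
Log2 fold change with its SE for the 47 tested genes of 4 pathway lists in day 7 injured cartilage, against naive and against day 7 contralateral libraries; each panel has its own axis and filled points passed the test. Ggcx, Vkorc1, Calu, Gas6, Stc1, Enpp3 and the 3 annexins are filled on the higher side against both controls, whereas Alpl, Spp1 and Ucma are open.

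Among the 47 genes, Stc1, Gas6 and Calu had a larger injury effect at day 7 than at day 1 (log2 differences of 1.63, 0.84 and 1.34; FDR = 0.00698, 0.0108 and 0.00851 by edgeR), and none a smaller one, where 3.53% of all genes passed upwards and 0.245% downwards. The count was 5 without day 1 contralateral library 4 or day 7 contralateral library 13, and from 2 to 5 upwards and 0 to 3 downwards with any 1 library left out; downwards it was 3 without day 1 injured library 3 or day 7 contralateral library 13. For Nt5e and Mgp that difference was 1.35 (SE 0.519, FDR = 0.182) and 0.98 (SE 0.354, FDR = 0.149), so that a larger effect at day 7 than at day 1 was not shown for them.

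Among protein-coding genes with a mean of at least 5 CPM, 11447 in all, those whose profile over the 18 libraries lay nearest to each risen gene were found by the root mean square difference of centred log2(CPM + 0.5). Nearest to Enpp1 were Robo1 (0.197), Myof (0.207) and Ephb2 (0.215). Nearest to Nt5e were A4galt (0.200), Osmr (0.201) and Nsg1 (0.203), and nearest to Mgp Nme2 (0.181), Map1b (0.183) and Rbms2 (0.192).

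The makeup of the libraries moved with the day 7 injured group too. Fewer cells of a type and less RNA per cell cannot be told apart in such bulk RNA. The chondrocyte label held in that all 8 cartilage markers were detected, led by Col2a1, but the summed CPM of 8 red cell genes, 16761 to 64660, was above that of the cartilage genes, 3137 to 12307, in every library. In day 7 injured against naive libraries 10.4% of all genes rose and 6.11% fell. The marker counts stand against these shares, and in lists this short a difference of 1 or 2 genes from them is no result about the list. In this comparison 3 of 8 cartilage markers rose (Acan, Comp and Sox9). Their summed level was 3515 to 6770 CPM in naive libraries with a median of 4267, was 12307, 3780 and 4362 CPM in day 7 contralateral and 6135, 6951 and 6773 CPM in day 7 injured libraries. Of 6 fibroblast markers 3 rose (Thy1, Cd248 and Has1). The list, led by Pi16, summed to 108 to 163 CPM in naive, 137, 124 and 115 CPM in day 7 contralateral and 252, 257 and 292 CPM in day 7 injured libraries. Of 8 red cell genes, led by Hbb-bs, 5 fell. The sum of the 8 was 30927 to 41443 CPM in naive and 27599, 23492 and 16761 CPM in day 7 injured libraries. It was 64660 (library 13), 29362 and 31472 CPM in day 7 contralateral libraries. In addition, 2 of 8 neutrophil and marrow markers fell (S100a8 and S100a9; led by Ngp), as did 2 of 4 adipocyte (Cidec and Lep; Adipoq), 1 of 6 lymphocyte (Ms4a1; Cd79b) and 1 of 6 osteoblast and osteocyte markers (Sost; Bglap). By contrast, 3 of 6 endothelial (Pecam1, Cdh5 and Emcn; Vwf), 2 of 6 smooth muscle and pericyte (Acta2 and Rgs5; Des) and 1 of 4 hypertrophic chondrocyte markers (Mmp13; Col10a1) rose, and none of 6 macrophage (Csf1r) or 6 skeletal muscle markers (Myh4) passed the test. Against the day 7 contralateral knee, where 9.33% of all genes rose and 3.23% fell, several marker calls differed. Pdpn rose beside Thy1 and Cd248, while Has1 did not pass, and Hapln1 rose beside Acan, Comp and Sox9. The falls were Ltf, Camp and Retnlg (neutrophil and marrow), Hba-a2, Hbb-bt, Alas2 and Slc4a1 (red cell), Plin1, Cidec and Lep (adipocyte) and Sost. The endothelial and smooth muscle calls were the same, and no lymphocyte marker passed. None of the 4 hypertrophic markers passed the test either. Their sum was 932, 1070 and 1002 CPM in day 7 contralateral and 865, 981 and 904 CPM in day 7 injured libraries. In naive libraries it was 432 to 968 CPM. No listed marker with a value was at 0 in all libraries. The part of these shifts in the rise of Enpp1, Nt5e, Mgp and the other genes was not tested.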

How the data were processed

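Per the labels and the methods, cartilage RNA was purified from pooled knees and sequenced with a stranded library kit. The authors trimmed the reads and pseudo-aligned them with kallisto to mouse transcripts (GRCm38 in the methods, whereas the processing notes of the submitters name GRCh38), and deposited its estimated counts and TPM values per transcript. Identifiers without version were matched to GENCODE genes of GRCm38. Of 137436 transcripts 135107 (98.3%) matched, and the others held 0.667% to 3.90% of a library's counts and were left out. Summing over the transcripts of a gene gave rounded estimated counts, and TPM likewise, for 49184 genes.

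Groups were taken from the labels. By the methods the authors removed 1 ACL sample with a low mapping rate, and the labels do not say whether it is among the 18 libraries. Tests involving day 7 contralateral cartilage used all 18 libraries and the rest used 15 (no day 7 contralateral), by the quasi-likelihood test of edgeR 4.0.16 in R 4.3.3 (TMM normalization, edgeR's filter on low counts, a mean per group). SE is the size of the log2 fold change over the root of F. P-values measure the spread between libraries, and by the methods the naive libraries share mice. The series text gives the same number of mice for every pool, whereas the methods do not. DESeq2 1.42.0, limma-voom 3.58.1, other normalizations, filters, thresholds and left-out libraries were alternatives. The pathway and marker lists were written for this work, and members and lists were chosen with earlier results of these data known. Named were the 7 genes, pathway genes called in a day 7 comparison plus Alpl, Abcc6, Spp1 and Ucma, the most abundant gene of each marker list and 3 nearest profiles for each risen gene; Pdpn, Has1, other markers, Slc34a1 to Slc34a3 and the copies of Bglap3 were named after their values were seen. Motif searches used the RefSeq table, which matched 5 of the 7 genes.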

Additional observations from a re-analysis of the deposited data

Results flagged for a closer look

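The injury effect (injured against contralateral) was larger at day 7 than at day 1 for Enpp1 by 2.18 on the log2 scale, for Stc1 by 1.63, for Calu by 1.34 and for Gas6 by 0.84, by edgeR's test of the difference (FDR = 0.000977, 0.00698, 0.00851 and 0.0108). The Gas6 call ended without day 1 contralateral library 5 (log2 difference 0.75, FDR = 0.0507), with the 3 libraries high in Pdpn and Has1 left out (0.72, FDR = 0.0860), with only the groups compared fitted (0.84, FDR = 0.0507) and at an FDR of at most 0.01.

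Among the 6 naive libraries a single library stood far from the others for 3 of 27 genes, where chance gives about 1 in 20. Naive library 11 held 256 CPM of Calu (others 164 to 195 CPM). Naive library 9 held 158 CPM of Alpl (others 97.7 to 114 CPM), and naive library 8 held 134 CPM of Gas6 (others 111 to 118 CPM). The Calu value of library 11 was still below the 472 to 652 CPM of the day 7 injured libraries. Naive library 11 also held 45.5 CPM of Pdpn (others 6.09 to 11.7 CPM) and 21.1 CPM of Has1 (others 3.35 to 8.12 CPM), genes that were chosen because of such values and are not among the 27.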

How the results depend on the processing

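Of 966 values of the 7 genes under an alternative, 958 stayed on the same side of the threshold, 5 newly passed it, 3 no longer did, and none of the called values reversed. The calls of Enpp1, Nt5e and Mgp against naive and day 7 contralateral cartilage held in every alternative. The log2 fold change of Enpp1 against naive ran from 1.82 to 2.20, of Nt5e from 1.21 to 1.52 and of Mgp from 0.77 to 0.90. In day 7 against day 1 injured cartilage, 1 of the 7 genes was called in place of 2 at an FDR of at most 0.01 and with all 18 libraries fitted, and from 1 to 2 with 1 library left out; Mgp was the one lost. Without the fold limit Ank also passed against naive and contralateral cartilage. As a share of the summed level of the 7 genes in naive libraries, Mgp held 20.3% by CPM and 58.6% by TPM, which scales by transcript length. Of 1380 values of the named pathway genes, 1282 stayed on the same side, 22 newly passed and 76 no longer passed. With all libraries kept and the same thresholds, the day 7 injured calls against naive or contralateral cartilage that ended, beside those of Anxa5 and Mepe above, were Enpp3 against the contralateral knee with a transcript length offset (FDR = 0.0597), Adora1 against naive with limma-voom (0.144) or the offset (0.0518), Bglap3 with the offset against naive (0.152) and contralateral (0.0947) cartilage and with only the groups compared (0.0516), and Adora2a with limma-voom (0.0598) or only the groups compared (0.139). By the Wald test of DESeq2, 5 pathway genes had a larger and 3 a smaller injury effect at day 7. Over all genes, without the fold limit 6291 in place of 3498 were called against naive and 5160 in place of 3257 against day 1 injured cartilage; at an FDR of at most 0.01 the latter were 1895. The difference between injury effects gave 344 in place of 802 at an FDR of at most 0.01, and 496, 465 and 402 in both directions without day 1 injured library 2, day 1 contralateral library 5 or day 7 injured library 18. Causes were not tested. No paired analysis was possible because the labels do not say which libraries came from the same mice and share no replicate number. The methods of the study account for shared pools with duplicateCorrelation of limma, which was not done here, and libraries of the same mice were treated as independent. Pooling hides the spread between mice.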
